A study of Mus musculus with 18 samples.

Results

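A set of 10 inflammatory cytokine and chemokine genes was followed across every library of the series, chosen by symbol from the 55414 gene identifiers of the count table: the interleukin-1 family genes Il1a, Il1b and Il18, the cytokines Tnf and Il6, the regulatory cytokines Il10 and Tgfb1, and the chemokines Cxcl2, Ccl3 and Ccl4. All 10 identifiers were found, and all 10 are annotated as protein coding. C57BL/6J wild-type mice had breathed filtered air or PM2.5, the fine particle fraction of polluted air, for 30 days, and polyadenylated RNA was sequenced in 2 experiments. The first took whole spleens, with 4 libraries from air and 4 from PM2.5. The second took macrophages isolated from the spleen, with 5 libraries from air and 5 from PM2.5, and its labels also speak of filtered air after the 30 days without saying whether this was a recovery period. The labels write CAP for the exposure, and it was read as PM2.5. Macrophage PM2.5 replicate 1 carries an air treatment tag against its title and was grouped by title. None of the sources used here gives the sex, the age or the way the macrophages were isolated, and nothing in the labels says whether libraries came from single or pooled animals, so p-values measure the spread between these libraries, which may be partly technical.

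These genes encode secreted signals. Cells that sense microbial products, damage or particles activate NF-kB and AP-1 transcription factors, which switch on Tnf, Il1a, Il1b, Il6 and the chemokine genes within a short time, while their transcripts are kept short-lived by RNA decay factors such as the Zfp36 protein. IL-1 beta and IL-18 are made as inactive precursors and are cut by caspase-1 in inflammasomes, so a transcript level is not a level of active cytokine. In the spleen, red pulp macrophages clear old erythrocytes, and TGF-beta 1 and IL-10 are known to restrain macrophage activation.

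Short stretches upstream of the RefSeq starts (GRCm38.p6) are shown for 6 of the genes because these differ in the elements that inducible promoters are known for; RefSeq windows were matched for 8 of the 10, and Il10 and Ccl4 are named only. Each line gives the 120 bases before the start, 5′ to 3′ on the gene's own strand, with capitals marking TATAAA or the NF-kB consensus.
Il1a: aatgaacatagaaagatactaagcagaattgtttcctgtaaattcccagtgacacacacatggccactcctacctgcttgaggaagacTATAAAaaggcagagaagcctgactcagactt
Il1b: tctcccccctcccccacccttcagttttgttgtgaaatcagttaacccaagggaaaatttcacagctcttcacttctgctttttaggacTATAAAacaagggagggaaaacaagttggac
Tnf: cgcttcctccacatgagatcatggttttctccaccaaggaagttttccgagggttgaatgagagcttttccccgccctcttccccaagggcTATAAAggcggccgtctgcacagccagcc
Il6: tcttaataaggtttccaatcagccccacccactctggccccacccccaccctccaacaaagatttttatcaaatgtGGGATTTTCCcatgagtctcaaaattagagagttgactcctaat
Cxcl2: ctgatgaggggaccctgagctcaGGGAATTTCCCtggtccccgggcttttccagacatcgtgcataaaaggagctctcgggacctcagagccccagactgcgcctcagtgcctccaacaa
Tgfb1: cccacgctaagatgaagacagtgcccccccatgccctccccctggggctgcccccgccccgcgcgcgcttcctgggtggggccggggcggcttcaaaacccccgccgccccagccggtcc

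The stretches lie at chr2:129309973-129310092 (minus strand) for Il1a, chr2:129371140-129371259 (minus) for Il1b, chr17:35202008-35202127 (minus) for Tnf, chr5:30012994-30013113 (plus) for Il6, chr5:90903779-90903898 (plus) for Cxcl2 and chr7:25686882-25687001 (plus) for Tgfb1. In the 250 bases upstream of the start, searched on both strands, TATAAA began at -32 in Il1a, -31 in Il1b and -29 in Tnf. The NF-kB consensus matched at -44 in Il6, and in Cxcl2 it matched at -97 and -96 as overlapping matches; the Ensembl annotation begins Cxcl2 slightly upstream of the RefSeq start. The AP-1 motif TGANTCA matched at -12 in Il1a and at -249 in Il6, and the C/EBP motif TTGCNNAA at -128 in Il6. None of the 4 motifs matched in Ccl3 or Tgfb1, and in Il18 TATAAA matched once, at -175. Of 32851 RefSeq windows, 12.4% held TATAAA, 3.9% the NF-kB consensus, 6.7% the AP-1 motif and 9.6% the C/EBP motif in the same 250 bases. Over these 250 bases, which reach beyond the printed 120, the GC content was 75.2% for Tgfb1, the highest of the 6 genes and at percentile 96 of all windows, 42.4% for Il1a and 44.4% for Il1b.

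Libraries held between 16493694 and 33844807 counts. Levels are given as CPM, the count of a gene scaled to the library total after TMM scaling, a correction for libraries of differing composition. The 13 macrophage marker genes tested were all higher in macrophage air than in spleen air libraries, with summed levels of 19330 to 26960 CPM against 486.7 to 748 CPM, and none was at 0 in any group. Transcripts of other cells were also present in the macrophage libraries: the B cell markers summed to 2568 to 4070 CPM in macrophage air, the erythroid markers to 2667 to 8992 CPM and the T cell markers to 187 to 243.6 CPM. Spleen air replicate 1 stood apart by the GC content of its transcripts, with a median log2 deviation of -0.81 over the most GC-rich genes (the top decile of transcript GC content) where the other 7 spleen libraries lay between -0.07 and 0.27. Spleen air replicates 3 and 4 held liver transcripts, and spleen PM2.5 replicates 2 and 4 held the most erythroid transcripts, 15550 and 9542 CPM summed. Spleen PM2.5 replicates 1 and 3 held 936.8 and 4252 CPM, and the air spleens 354.7 to 3056 CPM.

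**Figure D1:**
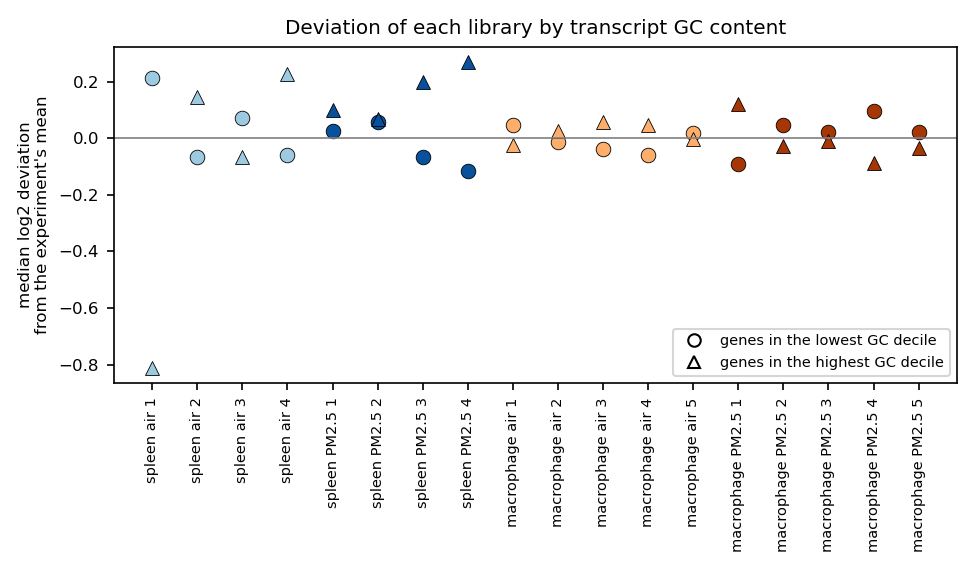
Median log2 deviation of each library from the mean of its experiment, for genes in the lowest (circles) and highest (triangles) decile of transcript GC content; colours mark the 4 groups. Spleen air replicate 1 reaches -0.81 for the GC-rich genes and 0.21 for the GC-poor genes, and the macrophage libraries stay within 0.12 of 0.

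In the air groups, 7 of the 9 cytokine and chemokine genes that could be tested were higher in isolated macrophages than in whole spleen, and Tnf was lower. The chemokine Cxcl2, the interleukin-1 family and Ccl3 differed most, Tgfb1 and Ccl4 by a smaller factor, and Il10 was at a similar low level in both (Il6 was too low to test). A gene is called where its adjusted p is under 0.05 in edgeR's quasi-likelihood test, with Benjamini-Hochberg adjustment over all genes tested. By this rule 66.5% of the 17779 genes tested were called between the preparations, 33.3% higher and 33.3% lower in macrophages, so a call in itself is common. The libraries of the 2 preparations did not overlap for 56.2% of all genes, 29.9% with macrophages higher. Cxcl2 entered this test through its macrophage counts alone and had to differ, and the count of 7 is a description. The preparation, the experiment and the handling of the cells cannot be told apart here, and in RNA from mixed cells fewer cells of a type and less RNA per cell cannot be told apart.

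Of the interleukin-1 family, Il1b (ENSMUSG00000027398, GRCm38 chromosome 2, 129364570 to 129371139, minus strand), the precursor of secreted IL-1 beta, had 148.1, 80.9, 79.7, 33.4 and 240.7 CPM in macrophage air replicates 1 to 5. Spleen air replicates 1 to 4 had 8.24, 4.42, 4.87 and 6.09 CPM. All 5 macrophage libraries lay above all 4 spleen libraries, and the macrophage libraries themselves spread widely, with replicate 5 highest and replicate 4 lowest. The log2 fold change, macrophages minus spleen, was 4.31 (SE 0.609, the standard error of the fit; 95% interval 3.03 to 5.58; edgeR adjusted p = 5.08e-06).

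Il1a (ENSMUSG00000027399, chromosome 2, 129299610 to 129309972, minus strand), which encodes the alarm signal IL-1 alpha, lies next to Il1b on the chromosome. It had 29.1, 29.0, 23.5, 18.1 and 51.6 CPM in macrophage air and 6.98, 4.08, 2.46 and 2.03 CPM in spleen air. The groups did not overlap, and spleen air replicate 1 was the highest of its group (log2 fold change 2.97, SE 0.355, edgeR adjusted p = 6.47e-07). Gm14023 overlaps exons of Il1a on the opposite strand with counts of 0 to 49 per library, and Il1bos overlaps Il1b with counts of 0 to 25. The strand setting of the counting is not known from the sources used here, so reads of these partners cannot be told apart from those of the cytokine genes.

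Il18 (ENSMUSG00000039217, chromosome 9, 50554827 to 50581840, plus strand), whose product drives interferon gamma release from lymphocytes, had 123.1, 155.3, 144.0, 112.9 and 160.6 CPM in macrophage air. In spleen air it had 22.6, 11.5, 15.04 and 14.5 CPM. Macrophage libraries differed little among themselves for this gene and did not overlap with spleen (log2 fold change 3.13, SE 0.223, edgeR adjusted p = 5.52e-10).

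The chemokines were split by size. Cxcl2 (ENSMUSG00000058427, chromosome 5, 90903871 to 90905938, plus strand), a neutrophil attractant, had 2, 1, 0 and 0 counts in spleen air replicates 1 to 4, and 158, 83, 138, 123 and 121 counts in macrophage air replicates 1 to 5, which is 5.01 to 7.28 CPM. The pooled level was 153 times that of spleen air, with an exact 95% counting interval of 52.1 to 744 that covers counting error only. After PM2.5 the spleen libraries had 2, 4, 2 and 0 counts, and the pooled ratio of macrophages to spleen was 79.2 (interval 40.0 to 184).

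Ccl3 (ENSMUSG00000000982, chromosome 11, 83647844 to 83649355, minus strand) and Ccl4 (ENSMUSG00000018930, chromosome 11, 83662584 to 83664683, plus strand) encode MIP-1 alpha and MIP-1 beta, which attract monocytes and T cells and lie side by side. Ccl3 had 14.5, 9.18, 21.7, 14.5 and 10.9 CPM in macrophage air and 2.83, 1.39, 0.473 and 0.824 CPM in spleen air (log2 fold change 3.38, SE 0.435, edgeR adjusted p = 1.57e-06). Ccl4 had 9.88, 6.46, 10.5, 6.43 and 7.58 CPM in macrophage air against 1.56, 2.40, 2.79 and 2.14 CPM in spleen air (log2 fold change 1.87, SE 0.25, edgeR adjusted p = 2.55e-06). For both genes every macrophage library was above every spleen library.

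Tgfb1 (ENSMUSG00000002603, chromosome 7, 25687002 to 25705077, plus strand) encodes TGF-beta 1. It had 534.3, 572.8, 595.3, 499.6 and 606.2 CPM in macrophage air, a narrow spread, and 39.9, 156.8, 120.7 and 206.3 CPM in spleen air. Spleen air replicate 1, the library that is low in GC-rich transcripts, held the 39.9. The groups did not overlap (log2 fold change 2.10, SE 0.294, edgeR adjusted p = 4.52e-06), and over the omission of each library in turn the fold change lay between 1.75 and 2.38.

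Tnf went the other way. Tnf (ENSMUSG00000024401, chromosome 17, 35199381 to 35202007, minus strand), the gene of tumour necrosis factor, had 14.9, 18.4, 18.5 and 12.9 CPM in spleen air and 13.1, 5.44, 12.5, 6.58 and 9.27 CPM in macrophage air. The groups overlapped, because macrophage replicate 1 was above the lowest spleen library (log2 fold change -0.78, SE 0.218, edgeR adjusted p = 0.00391). In the 26 alternatives tried for this comparison the value lay between -1.08 and -0.64 and stayed called. T cells and B cells also make Tnf, and their markers were lower in the macrophage libraries, 11 of 12 and 8 of 9 called, with summed T cell markers of 1594 to 2353 CPM in spleen air; their part in the Tnf result was not tested.

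Il10 and Il6 were low everywhere. Il10 (ENSMUSG00000016529, chromosome 1, 131019845 to 131024974, plus strand), the anti-inflammatory cytokine, had 0.902, 1.30, 1.51 and 0.274 CPM in spleen air and 0.877, 1.51, 0.489, 1.18 and 0.662 CPM in macrophage air. The groups overlapped fully (log2 fold change -0.10, SE 0.405, 95% interval -0.95 to 0.75, edgeR adjusted p = 0.839), an interval that leaves room for changes in either direction. Il6 (ENSMUSG00000025746, chromosome 5, 30013114 to 30019981, plus strand), a driver of the acute phase response, had 0, 1, 6 and 0 counts in spleen air and 7, 0, 10, 7 and 7 in macrophage air. Pooled over libraries the macrophage level was 3.26 times that of spleen air, with a counting interval of 1.41 to 8.78 that covers counting error only. The groups overlapped library by library, and edgeR with no filter did not call Il6 (log2 fold change 1.73, SE 1.08, edgeR adjusted p = 0.22). In a library with 0 counts a level of up to 0.0974 to 0.181 CPM, depending on its depth, is not excluded by the count.

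**Figure D2:**
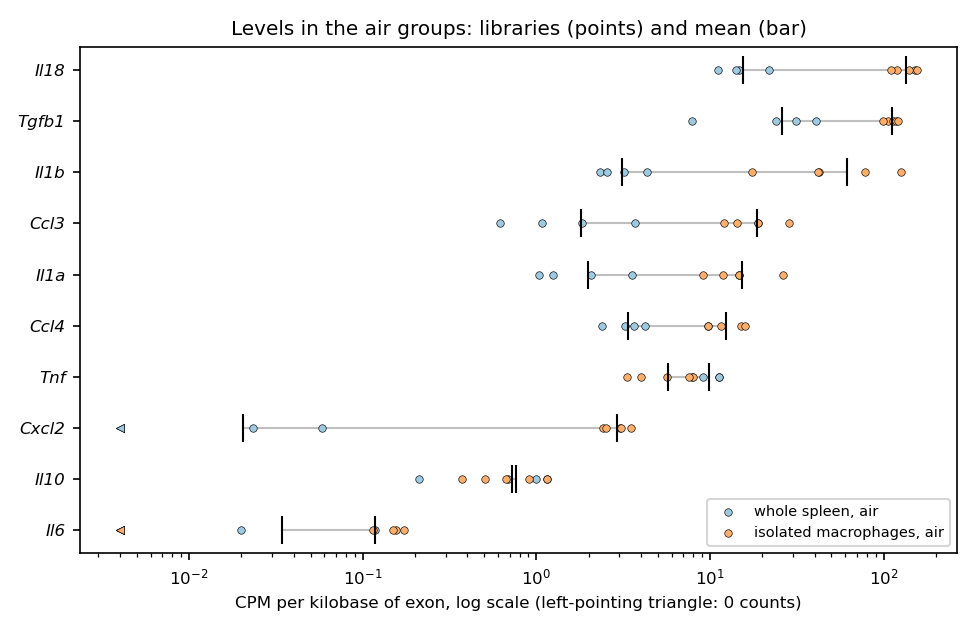
Level of each gene in the air groups in CPM per kilobase of annotated exon on a log axis; points are libraries, black bars the group means, and left-pointing triangles libraries with 0 counts. Il18, Tgfb1 and Il1b have the highest means in macrophages, and Cxcl2 shows the widest gap between the preparations.

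Levels can be ordered between genes only per length. In macrophage air libraries the mean CPM per kilobase of annotated exon was 135 for Il18, 111.4 for Tgfb1, 61.1 for Il1b, 18.5 for Ccl3, 15.3 for Il1a, 12.4 for Ccl4, 5.71 for Tnf, 2.91 for Cxcl2, 0.721 for Il10 and 0.118 for Il6. Neighbours in this order overlapped between libraries from Il18 down to Ccl4, and from Tnf to Cxcl2, while Ccl4 and Tnf, Cxcl2 and Il10, and Il10 and Il6 did not. In spleen air the order began with Tgfb1 at 26.0, Il18 at 15.4 and Tnf at 9.86 and ended with Il6 at 0.034 and Cxcl2 at 0.020, so Tnf stood above Ccl4 and Il1b in spleen and below both in macrophages. The order of the upper genes depends on the length used, because with the longest transcript in place of all exons Tgfb1 stands above Il18 in macrophages.

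PM2.5 left no cytokine or chemokine gene called in either experiment. The number called was 0 of the 8 genes tested in whole spleen, where 0.0121% of all genes tested were called, and 0 of the 9 tested in macrophages, where 0% were called. DESeq2 called 0 of them as well, beside 5.01% of all genes in spleen and 1.11% in macrophages, and so did limma-voom, beside 0.00604% and 0%. The fitted value was positive for 2 of 8 in spleen, where 51.8% of all genes had a positive value, and for 2 of 9 in macrophages, where 51.4% did. At an unadjusted p under 0.05, edgeR gave 0 genes in spleen, where 16.7% of all genes had one, and 1 gene, Tgfb1, in macrophages, where 10.9% of all genes had one. Every gene had overlapping air and PM2.5 libraries in both experiments, while 8.98% of all genes in spleen and 2.24% in macrophages had groups that did not overlap.

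**Figure D3:**
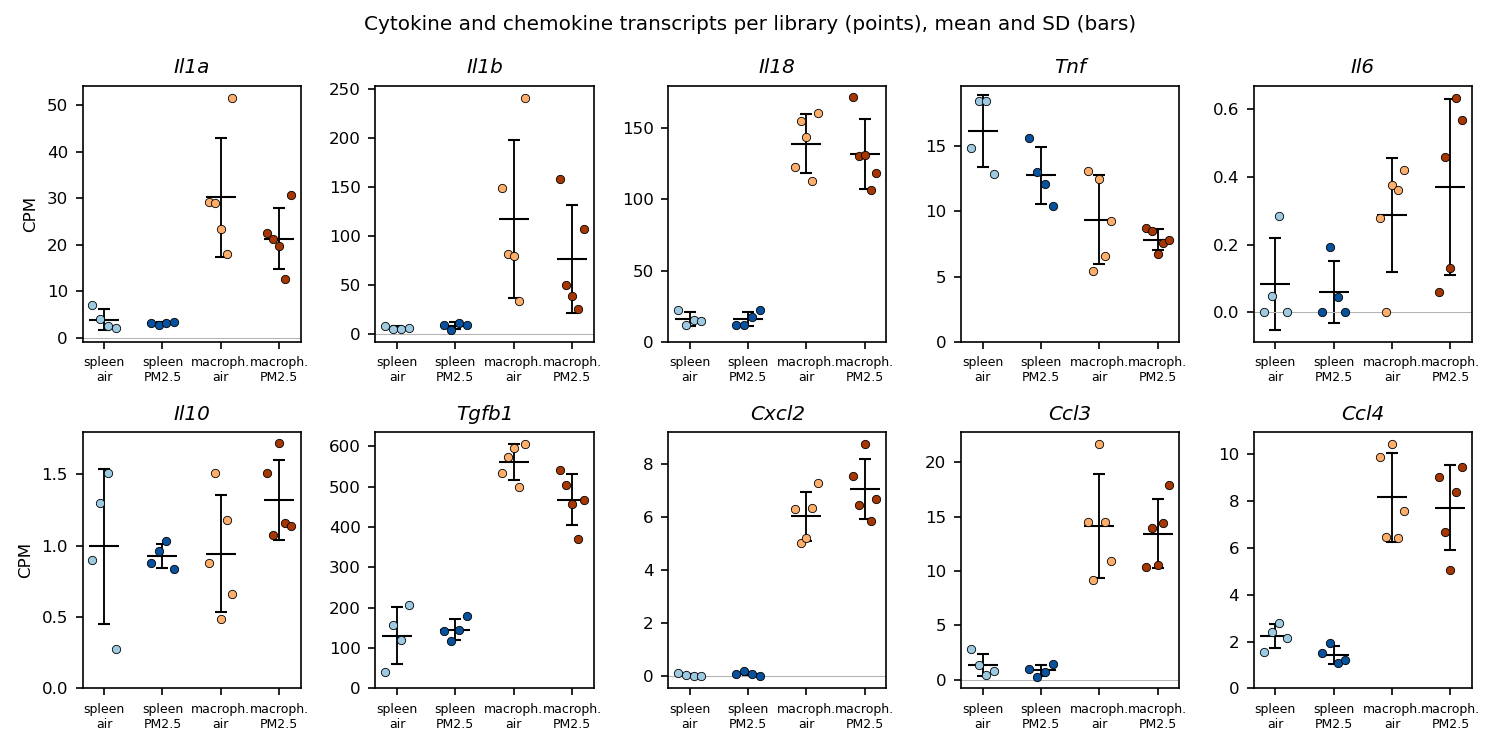
CPM of the 10 genes in each library (points), with the group mean and SD (bars), for spleen air, spleen PM2.5, macrophage air and macrophage PM2.5. Air and PM2.5 libraries of the same preparation overlap for every gene, and macrophage libraries lie above spleen libraries for Il1a, Il1b, Il18, Tgfb1, Cxcl2, Ccl3 and Ccl4.

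In whole spleen, the largest fitted values were those of the 2 CC chemokines. Ccl4 had 1.503, 1.92, 1.08 and 1.21 CPM after PM2.5 and 1.56, 2.40, 2.79 and 2.14 CPM in air; the PM2.5 group was the lower one except that its replicate 2 exceeded the lowest air library (log2 fold change -0.64, SE 0.377, 95% interval -1.47 to 0.19, edgeR adjusted p = 0.425). Ccl3 had 1.002, 0.288, 0.764 and 1.45 CPM after PM2.5 and was spread over 0.473 to 2.83 CPM in air (log2 fold change -0.65, SE 0.649, interval -2.07 to 0.78, edgeR adjusted p = 0.657). The value for Ccl3 rests on spleen air replicate 1, its highest library, and was -0.05 without it.

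Il1b had 9.39, 3.60, 11.2 and 8.68 CPM after PM2.5 and 4.42 to 8.24 CPM in air, with 3 of the 4 PM2.5 libraries above every air library and the other below them all (log2 fold change 0.47, SE 0.341, interval -0.28 to 1.22, edgeR adjusted p = 0.52). Replicate 2, the low one, also had the lowest summed neutrophil markers of its group, 33.2 CPM against 78.8, 142 and 244.6 CPM in the others, and neutrophil markers summed to 21.4 to 103 CPM in air; their part in the Il1b values was not tested. Neutrophils are a known source of Il1b, and 9 of their 10 tested markers had positive fitted values after PM2.5, with none called. The marker Cxcr2 was negative, at -0.64. In isolated macrophages 11 of 13 neutrophil markers were positive after PM2.5, none called, while the fitted value of Il1b was -0.62.

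Tnf had 15.6, 13.01, 12.1 and 10.4 CPM after PM2.5 against 12.9 to 18.5 CPM in air (log2 fold change -0.34, SE 0.195, interval -0.77 to 0.09, edgeR adjusted p = 0.414). Il1a had 3.30, 2.79, 3.19 and 3.36 CPM after PM2.5, a narrow range inside the 2.03 to 6.98 CPM of air (log2 fold change -0.29, SE 0.382, edgeR adjusted p = 0.739), and the value was 0.13 without air replicate 1. Il18 had 12.1, 11.9, 17.2 and 22.3 CPM after PM2.5, close to the 11.5 to 22.6 CPM of air (log2 fold change -0.01, SE 0.257, interval -0.57 to 0.56, edgeR adjusted p = 0.991).

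Tgfb1 had 141.2, 116.8, 145.7 and 178.9 CPM in the PM2.5 spleens, all within the 39.9 to 206.3 CPM of air (log2 fold change 0.14, SE 0.372, interval -0.68 to 0.96, edgeR adjusted p = 0.883). Its direction depended on air replicate 1, being -0.16 without that library, and -0.02 when each library was given an offset for transcript GC content, an alternative added after the data were seen. Il10 had 0.877, 0.960, 1.03 and 0.840 CPM, inside the range of air (log2 fold change -0.11, SE 0.545, edgeR adjusted p = 0.942), and without single libraries it lay between -0.42 and 0.17. Il6 (0 to 4 counts per PM2.5 library) and Cxcl2 (0 to 4) did not pass the filter on low counts in spleen, and their pooled ratios of PM2.5 to air were 0.62 (counting interval 0.155 to 2.27) and 2.31 (0.555 to 13.5). In the same spleens the macrophage markers had 13 of 13 fitted values positive, with a median log2 fold change of 0.56 and none called. They summed to 726.5 to 964.1 CPM after PM2.5 against 486.7 to 748 CPM in air. The erythroid markers shifted more, with 10 of 10 positive, a median of 3.32 and none called. Mesothelial markers were positive in 6 of 6 cases with a median of 4.89, none called. They summed to 36.44 to 205.2 CPM after PM2.5 against 2.745 to 5.353 CPM in air. The part of cell numbers in the cytokine and chemokine values above was not tested.

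**Figure D4:**
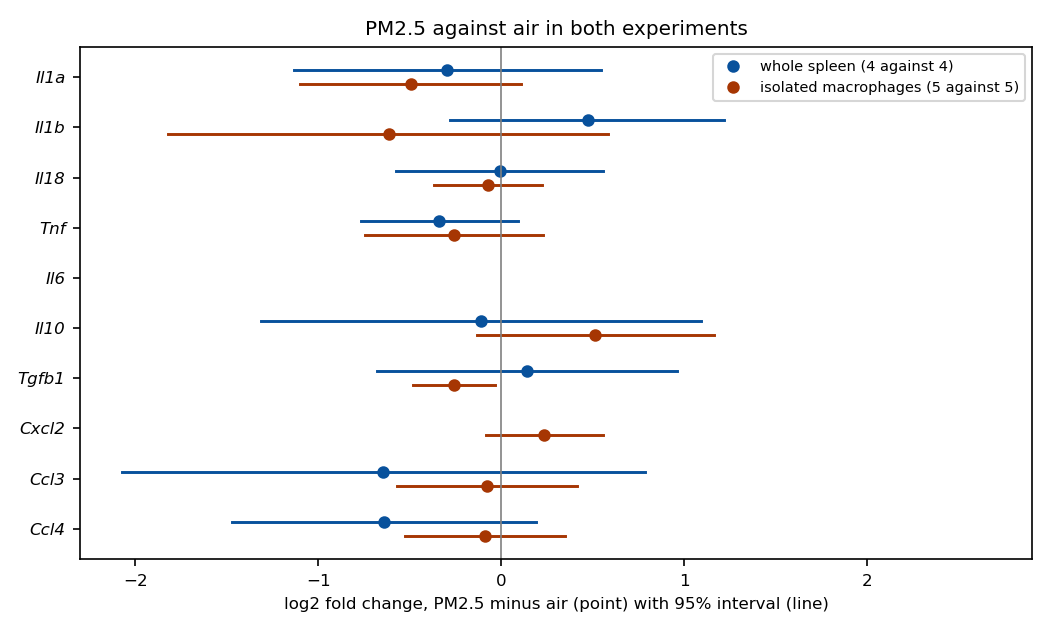
Log2 fold change of PM2.5 minus air (points) with 95% interval (lines) for whole spleen, 4 libraries per group, and isolated macrophages, 5 per group; Il6 in both and Cxcl2 in spleen were not tested. All intervals include 0 except that of Tgfb1 in macrophages, -0.48 to -0.03, which did not pass the adjusted threshold.

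In isolated macrophages, Tgfb1 came nearest to the threshold. It had 541.5, 505.0, 457.7, 370.7 and 466.3 CPM after PM2.5, against 499.6 to 606.2 CPM in air, so 3 of 5 PM2.5 libraries were below every air library and replicates 1 and 2 were not. The log2 fold change was -0.26 (SE 0.103, 95% interval -0.48 to -0.03), with an unadjusted edgeR p of 0.0284 and an adjusted p = 0.4. It lay between -0.33 and -0.19 over the 20 alternatives, with adjusted p from 0.247 to 0.984.

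Il1a and Il1b had lower means after PM2.5 with wide errors. Il1b had 157.4, 49.99, 39.0, 25.7 and 107.2 CPM after PM2.5; replicate 1 was above 4 of the 5 air libraries, and replicate 4 was the lowest of all 10 (log2 fold change -0.62, SE 0.55, interval -1.82 to 0.59, edgeR adjusted p = 0.704). The value moved with single libraries: it was -0.18 without air replicate 5, -1.08 without PM2.5 replicate 1 and -1.16 with that library counted as air, as its tag reads. Il1a had 22.5, 21.3, 19.7, 12.6 and 30.7 CPM (log2 fold change -0.49, SE 0.275, interval -1.10 to 0.11, edgeR adjusted p = 0.546). For Il1a every PM2.5 library lay below the air library of the same number, and for Il1b all but replicate 1 did. Equal numbers were not taken as pairs. Il18 had 171.7, 130.6, 131.6, 106.8 and 118.7 CPM, with the highest and the lowest of all 10 libraries in the PM2.5 group (log2 fold change -0.07, SE 0.135, interval -0.37 to 0.22, edgeR adjusted p = 0.864).

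Tnf had 8.71, 8.47, 6.73, 7.55 and 7.78 CPM after PM2.5, a far narrower spread than the 5.44 to 13.1 CPM of air (log2 fold change -0.26, SE 0.223, edgeR adjusted p = 0.695). Ccl3 had 10.4, 13.99, 10.5, 14.4 and 17.9 CPM and Ccl4 had 9.01, 6.67, 5.07, 8.40 and 9.45 CPM after PM2.5, both mixed with their air libraries (log2 fold changes -0.08, SE 0.224, and -0.09, SE 0.201; edgeR adjusted p = 0.917 and 0.893). Cxcl2 had 7.56, 6.44, 8.74, 5.86 and 6.68 CPM after PM2.5 (log2 fold change 0.24, SE 0.147, interval -0.08 to 0.55, edgeR adjusted p = 0.587).

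Il10 had 1.51, 1.07, 1.72, 1.16 and 1.14 CPM after PM2.5 against 0.489 to 1.51 CPM in air, and was among the few positive values (log2 fold change 0.51, SE 0.296, interval -0.13 to 1.16, edgeR adjusted p = 0.558). Il6 had 1, 12, 4, 12 and 15 counts after PM2.5 and 0 to 10 in air, with a pooled ratio of 1.25 (counting interval 0.77 to 2.04). With macrophage PM2.5 replicate 1 counted as air, as its tag reads, 0 of the genes were called, and the value of Ccl3 turned to 0.05.

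For the PM2.5 effect in macrophages minus that in spleen, edgeR called 0 of the 9 genes tested, while 1.46% of the 17779 genes tested were called, 0.416% higher and 1.04% lower. The split over all genes turned with GC offsets, to 824 higher and 266 lower. Il1b had the largest fitted difference, -1.11 (SE 0.748, 95% interval -2.68 to 0.46, edgeR adjusted p = 0.416), from a positive value in spleen and a negative one in macrophages. Cxcl2 followed with -0.87 (SE 0.814, interval -2.57 to 0.84), which rests on 3 and 8 counts in spleen and lay between -1.88 without spleen air replicate 1 and -0.29 without spleen PM2.5 replicate 2. Ccl3, Ccl4 and Il10 lay at 0.55, 0.56 and 0.61 with SE of 0.583, 0.344 and 0.568, and Tnf, Il18, Il1a and Tgfb1 lay between -0.42 and 0.08. None of these intervals excludes 0.

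The pathways around these genes were followed through 12 lists, 193 genes without the 10 themselves, chosen with earlier results of these data known. No gene of the lists was called after PM2.5 in spleen (0 of 169 tested) or in macrophages (0 of 163), beside 0.0121% and 0% of all genes; the unadjusted edgeR p was under 0.05 for 33 of them in each, 19.5% beside 16.7% of all genes in spleen and 20.2% beside 10.9% in macrophages. With DESeq2 the calls were 9 of 169 in spleen (6 positive, 3 negative; 5.33% beside 5.01% of all genes) and 2 of 163 in macrophages (1 of each sign; 1.23% beside 1.11%). With limma-voom there were 0 in each. In spleen the joint fit of all 18 libraries called 12 of 173 (10 positive, 2 negative), 6.94% beside 5.91% of all genes. GC offsets called 10 of 169 (4 positive, 6 negative), 5.92% beside 3.84% of all genes. With no filter edgeR called 8 of 190 (6 positive, 2 negative), 4.21% beside 1.55% of all genes. In macrophages these settings called 0 of the list genes. In the same macrophage libraries the macrophage markers were negative in 13 of 13 cases with a median log2 fold change of -0.13, none called, and summed to 16330 to 22950 CPM after PM2.5 against 19330 to 26960 CPM in air. The plasma cell markers were positive in 8 of 8 cases with a median of 0.85, none called, at 1397 to 4545 CPM against 769.5 to 2308 CPM, and T cell markers were positive in 11 of 12 with a median of 0.39, none called, at 195.1 to 259.6 CPM against 187 to 243.6 CPM. The part of these cells in the values of the lists was not tested. Of all list genes, 108 of 163 had negative values in macrophages.

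**Figure D5:**
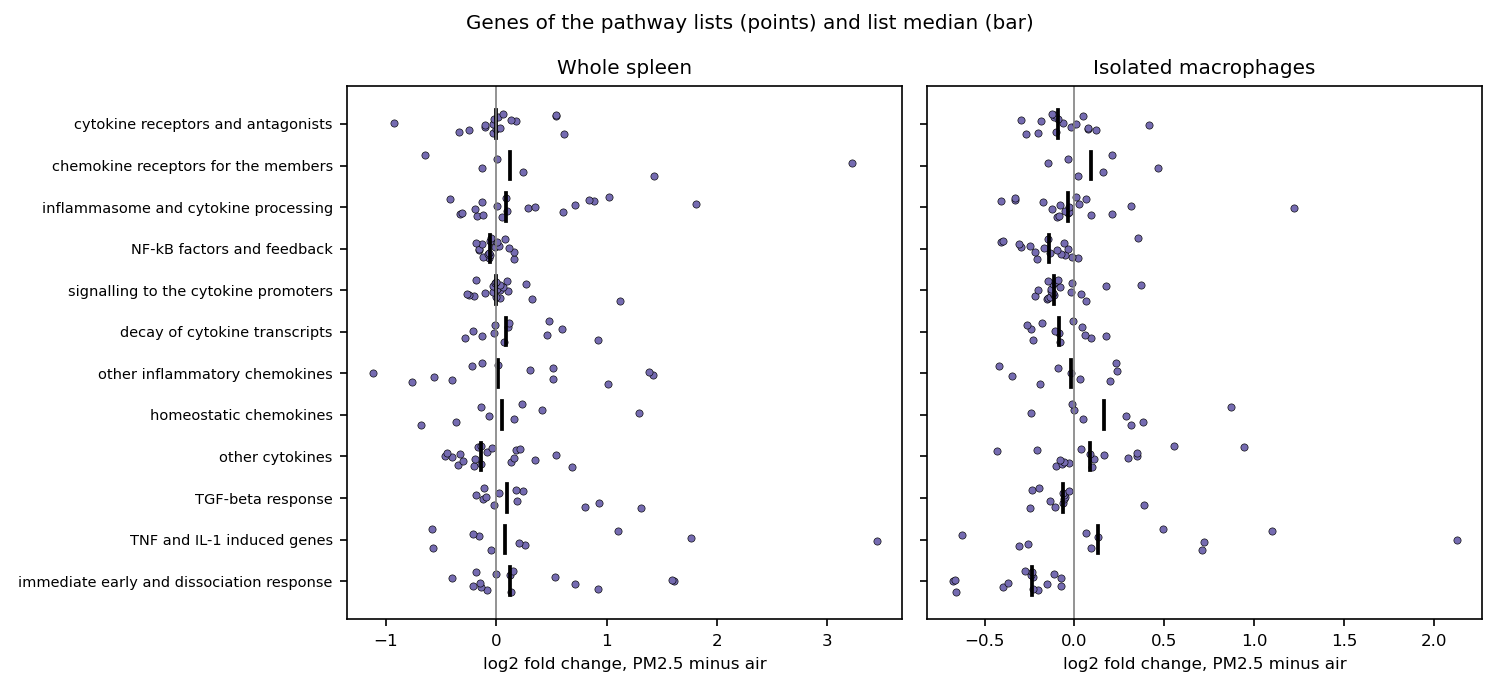
Log2 fold change of PM2.5 minus air for every tested gene of the 12 pathway lists (points) with the list median (bars), in whole spleen and in isolated macrophages. In macrophages the points of the immediate early list all lie below 0 and those of the NF-kB list mostly so, and the spleen points scatter on both sides.

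Among the receptors and antagonists of the cytokines, 8 of 17 fitted values were positive in spleen and 6 of 17 in macrophages. Tnfrsf1a, the main TNF receptor, had 27.0 ± 4.71 CPM in spleen air and 39.5 ± 8.28 CPM after PM2.5 (SD, n = 4 each). Its groups did not overlap, as for 8.98% of all genes in spleen (log2 fold change 0.54, SE 0.182, edgeR adjusted p = 0.18). Of the chemokine receptors, Ccr3, a receptor of eosinophils that several CC chemokines bind, had 0.428 ± 0.417 CPM in spleen air and 3.96 ± 1.94 CPM after PM2.5 (edgeR adjusted p = 0.124). Between the preparations in air, Ccr3 was higher in macrophages than in spleen, with a log2 fold change of 9.8. Which cells hold it in spleen was not tested. In spleen, Ccr3 was called by DESeq2 (adjusted p = 0.00073), the joint fit (0.00132), edgeR with no filter (0.015) and GC offsets (0.0466). Cxcr2, the receptor for Cxcl2, had 11.0 ± 2.26 and 7.03 ± 1.29 CPM (edgeR adjusted p = 0.195). In macrophages Il6st, the shared signal chain of the IL-6 receptor, had 226.9 ± 25.1 CPM in air and 184.0 ± 25.6 CPM after PM2.5 (SD, n = 5 each; edgeR adjusted p = 0.373).

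NF-kB genes and their feedback inhibitors had 16 of 18 negative fitted values in macrophages, with a median log2 fold change of -0.14, where 51.4% of all genes were positive. The macrophage markers had a median of -0.13, and the part of cell numbers in the NF-kB values was not tested. Tnfaip3, which encodes the NF-kB inhibitor A20, had 238.2 ± 28.9 CPM in air and 180.3 ± 28.8 CPM after PM2.5 (log2 fold change -0.40, SE 0.12, edgeR adjusted p = 0.308). Relb and Nfkbie, an NF-kB subunit and an inhibitor, had log2 fold changes of -0.41 and -0.30 (edgeR adjusted p = 0.312 and 0.304). In spleen 12 of 18 were negative with a median of -0.05, and none had an unadjusted p under 0.05.

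Immediate early genes, which cells switch on within minutes of a stimulus or of being dissociated from tissue, were negative in 15 of 15 cases in macrophages, with a median of -0.24 and none called, beside macrophage markers that were negative in 13 of 13 cases with a median of -0.13. Fosb, Egr1 and Atf3, transcription factors of this response, had log2 fold changes of -0.37, -0.40 and -0.66 (SE 0.12, 0.123 and 0.232; edgeR adjusted p = 0.334, 0.312 and 0.36). Their summed level was 9068 to 10920 CPM in air and 8105 to 9036 CPM after PM2.5, and the groups did not overlap. In spleen 8 of 15 were positive. The part of the isolation procedure in the cytokine values of the macrophage libraries was not tested, and these sums stand beside them as measured.

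Of other genes of the pathways in macrophages, the fitted values of 16 of 20 signalling genes and 8 of 12 decay genes were negative, and none was called. Zc3h12a and Zfp36, whose proteins degrade cytokine transcripts, had non-overlapping groups, as did 2.24% of all genes. They had 66.9 ± 4.78 against 56.4 ± 3.25 CPM and 1570 ± 91.2 against 1305 ± 123.5 CPM (log2 fold changes -0.24 and -0.26, edgeR adjusted p = 0.287 and 0.345). Socs3, a brake on IL-6 signalling, had a positive value of 0.37 (SE 0.0908, edgeR adjusted p = 0.258). TGF-beta response genes were negative in 11 of 12 cases with a median of -0.06, while of the TNF and IL-1 induced genes 8 of 11 were positive, led by Lcn2, an iron-binding protein of neutrophils and activated cells, at 2.12 (SE 0.603, edgeR adjusted p = 0.287). Neutrophil markers were positive in 11 of 13 cases in these libraries, summing to 160.8 to 251 CPM in air and 147.2 to 380.2 CPM after PM2.5.

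Among the other cytokines and chemokines in spleen, Ccl5, a T cell chemokine, had 130.0 ± 17.6 CPM in air and 88.2 ± 6.72 CPM after PM2.5. Its groups did not overlap, as for 8.98% of all genes in spleen (log2 fold change -0.56, SE 0.126, edgeR adjusted p = 0.119). DESeq2 called Ccl5 (adjusted p = 0.00621), as did edgeR with no filter (0.048), with GC offsets (0.0457) and without spleen air replicate 2 (0.0427). Csf1, the macrophage growth factor, had 28.4 ± 3.14 and 45.8 ± 10.5 CPM (log2 fold change 0.69, SE 0.171, edgeR adjusted p = 0.126; DESeq2 adjusted p = 0.013, joint fit 0.0401, edgeR with no filter 0.0364). In spleen DESeq2 also called Ltbp4, Ctgf, Il1rl1 and Dusp1 higher (adjusted p = 0.000174, 0.000964, 0.00131 and 0.0185). Their main log2 fold changes were 1.81, 1.31, 3.45 and 0.93. Ccl19 and Pycard were called lower (DESeq2 adjusted p = 0.0258 and 0.0378), with main values of -0.68 and -0.42. The main edgeR test called none of these genes, and 2 to 5 of the 19 alternatives called each. T cell markers were negative in 10 of 12 cases in spleen, summing to 1290 to 1645 CPM after PM2.5 and 1594 to 2353 CPM in air. NK cell markers went the other way, positive in 8 of 9 cases with a median of 0.45 and none called. The part of these cells in the Ccl5 value was not tested.

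Of the 173 pathway genes tested, 5 (2.89%) differed in their PM2.5 effect between the experiments beside 1.46% of all genes. For all 5 it was the PM2.5 effect that was lower in macrophages than in spleen. The macrophage markers had negative differences in 13 of 13 cases, with a median of -0.90, and 4 of 13 (30.8%) were called lower: Adgre1, Cd163, Csf1r and Fcgr1, named after their values were seen, whose calls were lost in 18, 2, 18 and 3 of 29 alternatives. Their part in the pathway calls was not tested. DESeq2 called 11 of the 173 pathway genes, 1 higher and 10 lower, which is 6.36% beside 5.87% of all genes. GC offsets called 9, 3 higher and 6 lower, which is 5.2% beside 6.13% of all genes. Nlrp3, the sensor of the inflammasome that matures IL-1 beta, had 1.76 ± 0.49 CPM in spleen air and 3.18 ± 0.306 CPM after PM2.5, and 47.3 ± 7.52 and 37.5 ± 4.34 CPM in macrophages (difference -1.18, SE 0.228, edgeR adjusted p = 0.0183). Ccr3 differed by -3.41 (SE 0.53, adjusted p = 0.00877). Both lost the call with limma-voom (adjusted p = 0.0844 for Nlrp3 and 0.0677 for Ccr3), Nlrp3 also without spleen PM2.5 replicates 2 and 4 (0.0623), and Ccr3 also without spleen air replicates 3 and 4 (0.0552). Their adjusted p ran from 0.000482 to 0.0844 and from 9.25e-11 to 0.0677 over 29 alternatives. The calls of Nlrp1b (another inflammasome sensor, -1.30), Ltbp4 (a carrier of latent TGF-beta, -1.81) and Dusp1 (a phosphatase that damps p38 signalling, -1.16) were near the threshold, at adjusted p = 0.0498, 0.0469 and 0.0424, and were lost in 20, 20 and 18 of the 29 alternatives, including most omissions of a single library.

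Between the preparations in air, 75.7% of the 173 pathway genes tested were called beside 66.5% of all genes, 82 higher and 49 lower in macrophages. Of the receptor list 11 of 17 were higher and 3 lower: Tnfrsf1a had 168.5 ± 19.4 CPM in macrophages and 27.0 ± 4.71 CPM in spleen, and Il6ra had 257.6 ± 28.9 and 64.6 ± 13.9 CPM, while Il18r1, the receptor for IL-18, had 7.95 ± 2.67 and 28.8 ± 3.14 CPM. Ccr3 had 368.0 ± 54.1 CPM in macrophages and 0.428 ± 0.417 CPM in spleen. Cxcr2 had 8.68 ± 1.81 and 11.0 ± 2.26 CPM and did not pass the test (edgeR adjusted p = 0.275). Immediate early genes were higher in 13 of 15 cases, with 1729 ± 132.7 CPM of Fos against 3.23 ± 0.862 CPM and 2119 ± 171.3 CPM of Jun against 12.3 ± 2.92 CPM, so the macrophage libraries in which Cxcl2, Il1b and Ccl3 were high also held these transcripts at high levels; their part was not tested.

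The homeostatic chemokines, several of which stromal cells of the spleen are known to make, were lower in the macrophage libraries in 6 of 8 cases and higher in 0, where 33.3% of all genes were higher and 33.3% lower; the same shares stand beside the counts that follow. Ccl21a, a stromal chemokine that guides T cells, had 725.1 ± 68.2 CPM in spleen air and 1.38 ± 0.352 CPM in macrophage air (log2 fold change -9.03, SE 0.262, edgeR adjusted p = 1.64e-14). Of the other inflammatory chemokines 3 of 13 were higher and 8 lower, with Ccl6, a macrophage chemokine, at 118.3 ± 16.8 against 3.96 ± 3.12 CPM. Of the other cytokines 2 of 21 were higher and 13 lower, among them Lta, lymphotoxin alpha, whose gene neighbours Tnf, at 7.99 ± 1.34 CPM in macrophages and 31.5 ± 5.07 CPM in spleen. Ccl21a, Ccl6 and Lta were chosen after their values were seen.

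Within the groups, the genes varied together only in part. Deviations of log2(CPM + 1) from the 4 group means were compared over the 18 libraries, as a description of libraries that share preparation and depth, and the pairs named are the closest among all pairs compared. The closest pair among the 10 was Il1a and Il1b (Pearson r = 0.71, Spearman rho = 0.67), with r = 0.86 over the 10 macrophage libraries and 0.37 over the 8 spleen libraries. In macrophage air replicate 5 both were highest and in replicate 4 both were lowest. Tnf and Ccl4 came next (r = 0.69, rho = 0.68), with r = 0.74 in macrophages and 0.55 in spleen. Il10 had no close partner among the 10, its highest r being 0.14 with Cxcl2.

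Of all other genes, Il18 was most like Ctsl, a lysosomal protease (r = 0.95, rho = 0.95), and Etfb (0.94 and 0.94), and the values changed little without the 2 libraries farthest from the median (0.94 for both). Tgfb1 was most like Fermt3 (r = 0.98, rho = 0.84) and Usf2 (0.97 and 0.86), which fell to 0.89 and 0.83 without spleen air replicates 1 and 4. Fermt3 had 101.2 CPM in spleen air replicate 1 and 183.1 to 239.0 CPM in the other spleen libraries, the same low library as for Tgfb1. Il1b was most like B4galt4 (0.90) and Gm20394 (0.89), Il1a like Dhdh (0.88) and Eloa (0.88), Tnf like Mreg (0.85) and Cass4 (0.81), Ccl3 like Tgif2 (0.83) and Ints4 (0.83), Ccl4 like Lad1 (0.77) and Tmem150b (0.76), Cxcl2 like Epdr1 (0.74) and Ccr1l1 (0.72), and Il10 like Gcdh (0.82) and Grhl1 (0.80), all as Pearson r. Without the 2 libraries farthest from the median, these pairs ran from 0.64 for Tnf and Cass4 to 0.94 for Il1b and Gm20394. Il10 and Gcdh had 0.71 then, and over all libraries 0.99 within spleen and 0.59 within macrophages. In spleen Gm20394 (0 to 0.42 CPM), Ccr1l1 (0 to 0.432 CPM) and Cxcl2 (0 to 4 counts) were near 0. A highest value among all genes tested is high by selection.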

How the data were processed

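Polyadenylated RNA was sequenced from 18 libraries. The authors deposited 1 table of raw counts (whole numbers per Ensembl gene, not normalized) made on builds named mm10 and GRCm38 with FastQC 0.10.1 and HTSeq 0.10.0 among the tools, per the submitters' processing notes; none of the sources used here gives the aligner, annotation release or strand setting. Of 55414 identifiers, 52133 matched GENCODE M21 and the other 3281 held 0.303% of counts. The genes studied, the gene lists and the alternatives fixed in advance were chosen with earlier results of these data known.

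Counts were tested in R 4.3.3 with edgeR 4.0.16 (quasi-likelihood, two-sided, the low-count filter of filterByExpr at its count of 10 and total of 15, TMM scaling, Benjamini-Hochberg over all genes, threshold 0.05), each experiment alone for PM2.5 against air and all 18 libraries together for the other 2 comparisons. CPM were computed on the joint scaling, which differed from that of each experiment alone by at most 0.027 on the log2 scale. The named genes were drawn from the 10 studied, the receptors, and for each studied gene its closest genes by Pearson r. They were also drawn from pathway genes past the threshold in a PM2.5 comparison (up to 4 per list). Otherwise up to 3 genes per list with the smallest p were eligible, and not all of them are named. Alternatives were DESeq2 1.42.0, limma-voom in limma 3.58.1, other scalings and filters, a replicate block and the omission of libraries. Offsets for GC content were added after the data were seen. The fits were tested on simulated data. Counting intervals are exact and assume independent reads, and 0 counts allow up to 3.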

Additional observations from a re-analysis of the deposited data

Results flagged for a closer look

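Il6 in spleen air stood out because 1 library lay far from the other 3: replicate 3 had 0.284 CPM, from 6 counts, and the next highest library had 0.048 CPM, a gap of 0.831 of the group's whole range. It was the 1 flag among 40 groups checked, where chance flags about 1 in 20.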

How the results depend on the processing

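The number of the 10 genes called stayed at 0 in spleen, in macrophages and for the difference between them, and at 8 between the preparations, under every alternative run (19, 20, 29 and 26). No call of a single one of the 10 genes changed in any of them, but uncalled values turned sign, from main values as far from 0 as -0.866 for Cxcl2 and 0.547 for Ccl3, both for the difference. In spleen these were Il18 with DESeq2 size factors (0.00933), DESeq2 (0.00945), limma-voom (0.00372) and no filter (0.0259) against a main value of -0.00834, Il10 with limma-voom (0.0689) and the replicate block (0.0728), and Tgfb1 with GC offsets (-0.0155). For the difference between the experiments they were, without spleen air replicates 3 and 4, Il1a (0.318), Il18 (0.0414) and Cxcl2 (0.0894), and, without spleen PM2.5 replicates 2 and 4, Il18 (0.0342) and Tnf (-0.0441). In macrophages Ccl3 was 0.0533 with PM2.5 replicate 1 counted as air. Nfkbia between the preparations was 0.0458 with no filter and 0.0709 without spleen air replicates 3 and 4. Omitting each library in turn gave, in spleen, -0.211 to 0.198 for Il18, -0.416 to 0.165 for Il10, -0.503 to 0.133 for Il1a and -0.162 to 0.457 for Tgfb1; in macrophages, -0.202 to 0.12 for Ccl3, -0.172 to 0.0374 for Ccl4 and -0.0384 to 0.157 for Ltbp4; for the difference, -0.635 to 0.0774 for Il1a, -0.287 to 0.131 for Il18, -0.065 to 0.228 for Tnf and -0.0482 to 0.883 for Ccl3; and between the preparations, -0.433 to 0.12 for Il10. The cause of these shifts was not tested. Over all genes the count called ran from 0 to 1050 in spleen (636 with GC offsets, 159 of them higher and 477 lower), 0 to 175 in macrophages, 3 to 1317 for the difference and 10520 to 12619 between the preparations, where upper-quartile scaling moved the median log2 fold change of all genes to -0.294 and the share of higher calls from 50% to 36.5%; for the difference that share went from 28.6% to 16.5% with DESeq2 size factors and to 75.6% with GC offsets (824 higher, 266 lower). In spleen the median of all genes was -0.119 with GC offsets and 0.105 with no filter. Equal replicate numbers were not taken as pairs, because the labels do not say that they pair animals. The deviations of same-numbered libraries correlated at -0.137 to 0.0589 in spleen and -0.143 to 0.284 in macrophages. Spleen replicate 3 (0.0589) and macrophage replicates 4 (0.284) and 5 (0.254) correlated highest with their own number, so shared structure is not excluded. The replicate block called 0 of the 10 genes in each PM2.5 comparison. Counts of 0 to 6 for Cxcl2 and Il6 in spleen limit what can be said of these 2 genes there.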
